A study of Mus musculus with 6 samples.

Results

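The voltage-gated sodium and calcium channel genes were examined in whole-brain RNA of mice with an inducible neuronal deletion of HuR, a protein that binds RNA and is the product of Elavl1. The members were taken by symbol, as genes starting with Cacna, Cacnb or Cacng and genes made of Scn, a number and a or b, each read by its brightest probeset with 1 gene symbol. This gave 36 genes, 11 of sodium and 25 of calcium channels, out of 22180 genes with 1 symbol on the array. Both groups carried the transgene Thy1Cre-ERT2-EYFP, in which the Thy1 promoter of neurons drives a tamoxifen-inducible Cre recombinase together with a yellow fluorescent reporter. The 3 control mice had 1 floxed and 1 unfloxed HuR allele (HuRf/+, labelled WT), and the 3 knockout mice had both alleles floxed (HuRf/f, labelled KO). Mice of either sex received tamoxifen at 10 and 11 weeks of age, and brain was taken at 91 days. Controls could therefore also lose 1 allele in neurons, and cells in which Cre was not active kept the gene in both groups. Each sample was read on 1 Affymetrix Mouse Gene 2.0 ST array, and the labels do not say which mouse gave which sample.

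Voltage-gated sodium channels open when the membrane depolarises and carry the rising phase of the action potential. Each consists of an alpha subunit, which forms the pore and the voltage sensors, and of small single-span beta subunits that tune gating and anchor the channel. Voltage-gated calcium channels turn the same depolarisation into calcium entry, which triggers transmitter release at terminals and signalling in dendrites. Their alpha1 subunit forms the pore, while the alpha2delta and beta subunits bring it to the membrane and set its gating. The gamma subunits are named after a calcium channel subunit of skeletal muscle, and several brain members act instead as auxiliary subunits of AMPA-type glutamate receptors.

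Array medians ran from 13.4 to 14.6 intensity units, and values are given as log2(intensity + 1) after quantile normalization. Elavl1 itself stood at 8.27, 8.01 and 8.53 in control and at 8.22, 8.17 and 8.27 in knockout brain, with overlapping groups and a log2 fold change (knockout over control) of -0.05 ± 0.15 (SE). Whether its probeset reads the deleted part is not given in the labels. The arrays numbered 3 in the 2 groups stood apart from the other 4 arrays: Xist, the RNA expressed from the inactive X chromosome, was at 7.69 in control 3 and 7.68 in knockout 3 against 2.52 to 2.79 elsewhere. The labels give no sex for single mice. Since each group holds 1 such array, the knockout comparison is given with and without an account of it. In whole tissue, fewer cells of a type and less RNA per cell cannot be told apart.

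**Figure D1:**
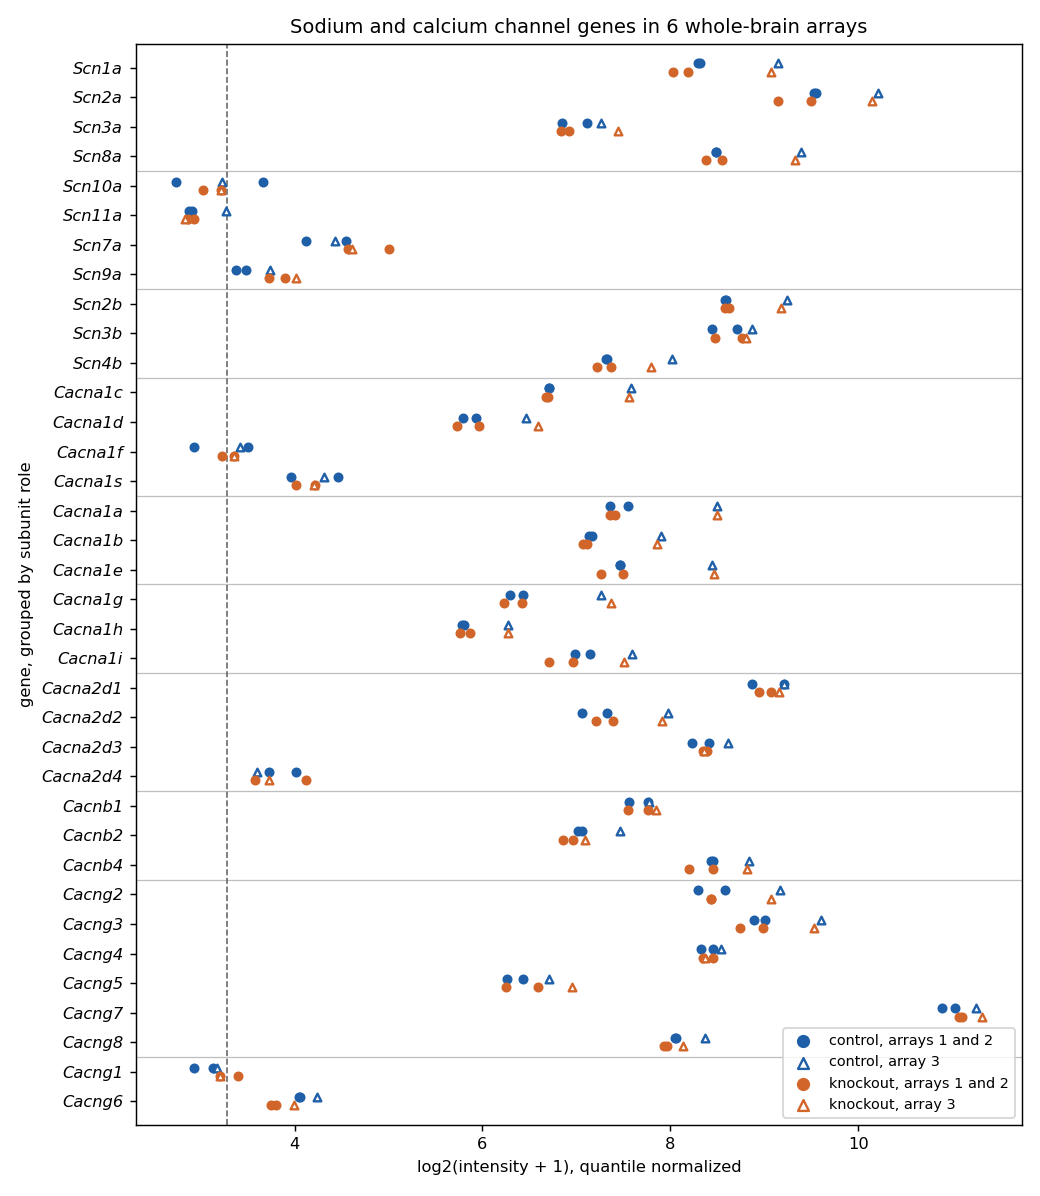
Log2(intensity + 1) of the 36 channel genes on each of the 6 arrays, in rows grouped by subunit role, with control in blue, knockout in orange and arrays numbered 3 as open triangles. The dashed line is the brightness limit of 3.28, under which 3 genes fell on average, and triangles sit to the right of all circles in 24 of the 33 genes above it. Levels of different genes are not comparable on an array.

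No channel gene passed the test between knockout and control brain. Of the 36 members, 33 exceeded the brightness limit, which left out the dimmest 25% of genes and lay at 3.28, and entered the fit with 16635 genes in all. With limma and Benjamini-Hochberg adjustment 0 of the 33 passed an adjusted p of 0.05, as did 0 of all genes (0%). At an unadjusted p under 0.05 there was 1 member, or 3.03%, against 1.7% of all genes. The log2 fold changes ran from -0.27 for Cacng6 to 0.36 for Scn7a, and 29 of 33 lay within 0.2 of 0. Their median was -0.038 beside 0.013 for all genes tested, and 21 of 33 lay below 0 beside 45.2% of all genes. With arrays centred on their median the member median turned to 0.016, beside 0.055 for all genes, and 11 of 33 lay below 0 beside 31.4% of all genes. The member median was -0.15 without control 1, -0.14 without control 2 and 0.14 without control 3. It was 0.061 without knockout 1, 0.085 without knockout 2 and -0.21 without knockout 3. Leaving out 1 array gives the arrays numbered 3 unequal weight in the 2 groups. Most members were higher on those arrays, so these signs cannot be read as a property of single arrays. Without both arrays numbered 3 the member median was -0.022.

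The intervals show what size of difference these arrays could have shown. The half-width of the 95% confidence interval had a median of 0.44 over the 33 members, beside 0.33 over all genes, and ran from 0.25 for Cacng4 to 0.90 for Cacna1a. In 12 members the whole interval lay within 0.5 of 0, that is within 1.41-fold in either direction. When a term for the arrays numbered 3 was added, the median half-width was 0.23, beside 0.24 over all genes, and 31 of 33 intervals lay within 0.5 of 0. The other two belonged to Scn7a and Scn9a. With that term 0 members again passed after adjustment. Scn9a and Cacng6 had unadjusted p values under 0.05 with it, as the same 2 genes did with the replicate number as a block (6.06% of members, beside 4.85% of all genes).

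**Figure D2:**
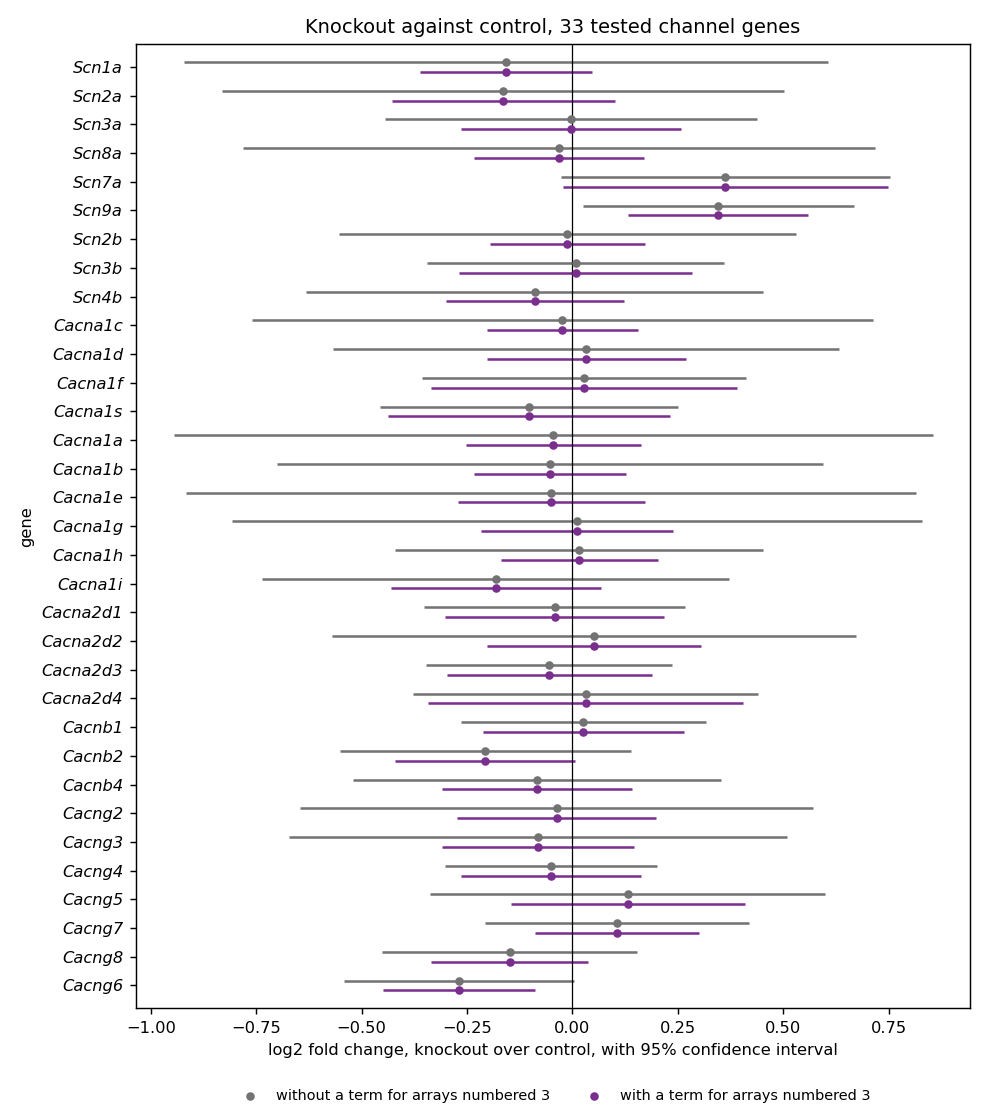
Log2 fold change of knockout over control with its 95% confidence interval for the 33 tested channel genes, without (grey) and with (purple) a term for the arrays numbered 3. The estimates are the same, since each group holds 1 array numbered 3, and the interval of Cacna1a narrows from -0.95 to 0.85 down to -0.25 to 0.16.

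The 4 sodium channel alpha subunits of brain neurons had a median log2 fold change of -0.095, and 0 of 4 passed the test. Scn1a encodes Nav1.1, the main sodium channel of parvalbumin interneurons, whose loss causes Dravet epilepsy in people. Its log2 level was 8.32, 8.29 and 9.15 in the 3 control arrays and 8.03, 8.19 and 9.07 in the 3 knockout arrays. The groups overlapped, with the arrays numbered 3 highest in each, and the log2 fold change was -0.16 ± 0.33 (SE; limma adjusted p = 0.9998). Scn2a encodes Nav1.2, which is found in unmyelinated axons and at the initial segment of excitatory neurons. It stood at 9.53, 9.55 and 10.21 in control and at 9.50, 9.15 and 10.15 in knockout brain, a log2 fold change of -0.16 ± 0.29 (SE). Here too the arrays numbered 3 exceeded all others, and the knockout 2 array was the lowest. Scn8a encodes Nav1.6, the channel of mature nodes of Ranvier. Levels of 8.49, 8.48 and 9.39 in control and 8.55, 8.38 and 9.33 in knockout brain gave a log2 fold change of -0.03 ± 0.32 (SE). Scn3a, which encodes Nav1.3 and is expressed most before birth, had levels of 6.84, 7.11 and 7.26 in control and 6.83, 6.93 and 7.44 in knockout brain. Its log2 fold change was -0.0035 ± 0.19 (SE). All 4 values lay below 0 here, while with arrays centred on their median those of Scn3a and Scn8a were 0.069 and 0.017, and with values as deposited that of Scn3a was 0.033.

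Promoters of these brain subunits are shown because Scn1a, Scn2a and Scn8a had the same order of arrays, with both arrays numbered 3 highest. The dim probeset of Scn9a alone, a neighbour of Scn1a, did not have this order. A probeset annotated to both Scn9a and the predicted gene Gm13629 did have it. That probeset stood at 6.80 and 6.88 on the arrays numbered 3 and at 6.16 to 6.53 on the others. The windows are those of RefSeq on GRCm38.p6, from 250 bases before to 50 bases after an annotated start, and 28 of the 36 members have 38 windows in that table. Capitals mark a TATA box (TATAAA), a GC box (GGGCGG) or a CCAAT box (CCAAT) on either strand. A CCAAT box on the other strand (ATTGG) can share bases with a GC box, and only the Scn1a window and the downstream Scn2a window hold a match among those shown. The array reads whole transcripts and does not tell which start was used. Scn1a lies at chr2:66440788-66441087 on the minus strand, the 2 Scn2a windows at chr2:65620519-65620818 and chr2:65668436-65668735 on the plus strand, the first Scn8a window at chr15:100870395-100870694 on the plus strand and Scn9a at chr2:66634913-66635212 on the minus strand.
Scn1a: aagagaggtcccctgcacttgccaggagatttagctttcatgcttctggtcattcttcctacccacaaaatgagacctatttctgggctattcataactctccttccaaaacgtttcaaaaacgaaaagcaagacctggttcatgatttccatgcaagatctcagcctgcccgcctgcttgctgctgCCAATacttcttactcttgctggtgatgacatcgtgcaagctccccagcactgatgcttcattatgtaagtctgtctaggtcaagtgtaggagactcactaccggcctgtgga
Scn2a, upstream start: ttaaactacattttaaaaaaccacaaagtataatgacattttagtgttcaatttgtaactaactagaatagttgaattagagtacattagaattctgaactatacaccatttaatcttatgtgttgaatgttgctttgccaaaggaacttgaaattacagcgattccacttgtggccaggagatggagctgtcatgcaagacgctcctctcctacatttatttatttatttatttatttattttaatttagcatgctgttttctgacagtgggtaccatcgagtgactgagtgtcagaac
Scn2a, downstream start: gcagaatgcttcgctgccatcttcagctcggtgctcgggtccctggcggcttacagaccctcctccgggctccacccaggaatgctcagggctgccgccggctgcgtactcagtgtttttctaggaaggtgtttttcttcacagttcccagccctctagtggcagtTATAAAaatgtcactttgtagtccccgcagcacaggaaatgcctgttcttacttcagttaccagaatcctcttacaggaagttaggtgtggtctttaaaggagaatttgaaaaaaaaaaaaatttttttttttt
Scn8a: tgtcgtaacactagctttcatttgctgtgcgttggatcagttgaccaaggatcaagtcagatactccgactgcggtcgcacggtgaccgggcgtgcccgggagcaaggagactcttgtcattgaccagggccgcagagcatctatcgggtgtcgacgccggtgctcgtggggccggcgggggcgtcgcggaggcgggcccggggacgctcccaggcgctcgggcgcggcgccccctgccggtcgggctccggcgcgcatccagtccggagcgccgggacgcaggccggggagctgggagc
Scn9a: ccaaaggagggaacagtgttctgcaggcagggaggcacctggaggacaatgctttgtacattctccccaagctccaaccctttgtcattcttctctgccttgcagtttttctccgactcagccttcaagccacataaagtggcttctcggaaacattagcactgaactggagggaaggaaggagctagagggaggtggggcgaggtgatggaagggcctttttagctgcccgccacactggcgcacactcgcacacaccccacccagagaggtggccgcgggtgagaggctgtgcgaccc

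These windows differed in base composition. The Scn8a window shown had 70% G and C with 38 CpG sites, and a second one at chr15:100936021-100936320, not shown, had 53.3% with 12 CpG sites. The Scn1a window had 47.3% with 5 CpG sites, those of Scn2a had 33% and 47.7%, and the Scn9a window had 57.3%. A TATA box was present in the downstream window of Scn2a and in 2 of 38 member windows, beside 13.6% of all 32851 windows in the table. GC boxes were present in 14 of 38 member windows (36.8%), beside 35.7% of all windows. CCAAT boxes were in 9 of 38 (23.7%) and in 37.4% of all windows, and Scn1a held 1. Such matches describe the letters of these windows and are not measured binding sites.

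The sodium channel alpha subunits of muscle, heart and sensory neurons included the member with the smallest p value. Scn9a encodes Nav1.7, which sets the threshold of pain-sensing neurons and is also found in hypothalamic and olfactory neurons. Its log2 level was 3.37, 3.48 and 3.74 in control and 3.73, 3.90 and 4.02 in knockout brain. The knockout values lay higher apart from an overlap between knockout 1 and control 3. The log2 fold change was 0.35 ± 0.14 (SE), a fold of 1.27 and 0.16 on the log2 scale with a pseudocount of 16, with a 95% confidence interval from 0.02 to 0.67 and a limma adjusted p of 0.9998 (0.984 with the replicate block). It was 0.38 without both arrays numbered 3, where it also had an unadjusted p under 0.05. A second probeset, annotated to both Scn9a and the predicted gene Gm13629, did not share this difference: it stood at 6.37, 6.53 and 6.80 in control and at 6.16, 6.31 and 6.88 in knockout brain, a mean difference of -0.12. That probeset cannot be assigned to either gene, and the probeset of Scn9a alone lay close to the brightness limit of 3.28.

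Scn7a, Scn10a and Scn11a were dim in whole brain. Scn7a encodes NaX, a sodium-sensing channel of glia in circumventricular organs. With levels of 4.55, 4.12 and 4.43 in control and 4.57, 5.01 and 4.61 in knockout brain, it was 1 of 2 tested members whose groups did not overlap (6.06% of members, beside 5.7% of all genes). All 3 knockout arrays lay above the control arrays, though control 1 at 4.55 and knockout 1 at 4.57 nearly touched, and the log2 fold change was 0.36 ± 0.17 (SE; limma adjusted p = 0.9998). It was 0.22 without knockout 2, 0.24 without control 2 and 0.22 with a pseudocount of 16. Scn10a and Scn11a, which encode Nav1.8 and Nav1.9 of pain-sensing neurons, lay below the brightness limit and were not tested. Scn10a ranged from 2.74 to 3.66 in control and from 3.03 to 3.22 in knockout brain, and Scn11a from 2.87 to 3.27 and from 2.83 to 2.94. Markers of sensory neurons were likewise dim, with Trpv1, the capsaicin receptor, at 2.93 to 3.54 over the 6 arrays and Mrgprd below the limit. On chromosome 2 the genes Scn3a, Scn2a, Scn1a, Scn9a and Scn7a lie within one cluster in that order.

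**Figure D3:**
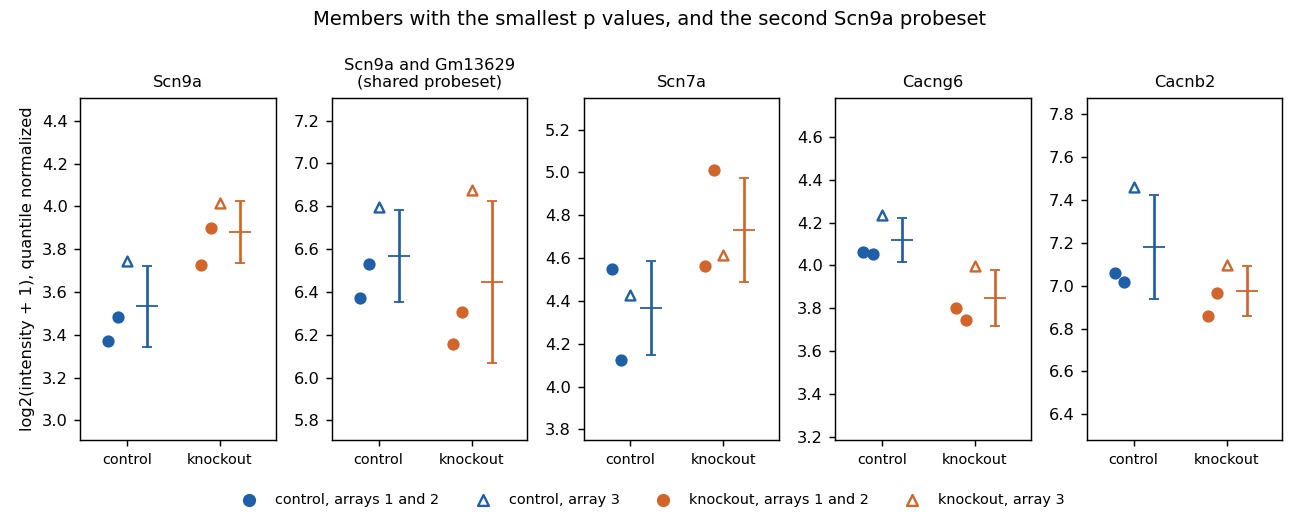
Log2(intensity + 1) in each array for Scn9a, for the probeset shared by Scn9a and Gm13629, and for Scn7a, Cacng6 and Cacnb2, with group mean and SD (n = 3) beside the points. Each panel spans the same range of 1.6 on the log2 scale around its own mean; the Scn9a probeset is higher in knockout (3.53 against 3.88) while the shared probeset is not (6.57 against 6.45).

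The sodium channel beta subunits had values close to 0, and 0 of 3 passed the test. Scn4b, whose cytoplasmic tail contributes to resurgent sodium current, had the smallest p among them. Levels of 7.32, 7.31 and 8.02 in control and 7.22, 7.37 and 7.80 in knockout brain gave a log2 fold change of -0.09 ± 0.23 (SE). Scn2b, a disulphide-linked partner of the alpha subunits, was at -0.012 ± 0.23 (SE) and Scn3b at 0.0075 ± 0.15. For Scn2b the sign was positive in the deposited values (0.00053) and after centring each array (0.036). In Scn2b the 4 arrays not numbered 3 agreed within 0.050, from 8.58 to 8.63, and the arrays numbered 3 stood at 9.24 and 9.18.

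Calcium channel alpha1 subunits of the P/Q-, N- and R-type had log2 fold changes of -0.046 to -0.054, and 0 of 3 passed. Cacna1a encodes the P/Q-type pore, the main calcium source of transmitter release at central synapses. Its level was 7.36, 7.55 and 8.50 in control and 7.36, 7.41 and 8.50 in knockout brain, so the genotypes differed by far less than the arrays numbered 3 did from the rest. The log2 fold change was -0.05 ± 0.39 (SE). Cacna1b, the N-type pore, stood at 7.17, 7.13 and 7.91 in control and 7.12, 7.07 and 7.85 in knockout brain (log2 fold change -0.05 ± 0.28, SE). Cacna1e, the R-type pore, had 7.47, 7.46 and 8.44 in control and 7.49, 7.26 and 8.46 in knockout brain (-0.05 ± 0.37). All 3 genes were higher on the arrays numbered 3 than on any other, and the differences between genotypes were smaller than the SDs of 0.437 to 0.646 within groups. After centring each array the 3 values turned to 0.011, 0.016 and 0.0086.

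L-type and T-type subunits also had overlapping groups in all 7 genes. Cacna1c, the L-type pore that couples dendritic activity to transcription and also drives the heart, stood at 6.71, 6.70 and 7.58 in control and 6.70, 6.67 and 7.56 in knockout brain. Its 4 arrays not numbered 3 spanned 0.040, the narrowest span of any tested member. The log2 fold change of Cacna1c was -0.02 ± 0.32 (SE), and 0.011 with values as deposited. Cacna1d, a second neuronal L-type pore, had a log2 fold change of 0.03 ± 0.26. Cacna1s of skeletal muscle and Cacna1f of the retina were dim, at means of 4.25 and 3.29 in control brain. Cacna1s, which had the smallest p of the L-type pores, stood at 3.96, 4.47 and 4.31 in control and 4.01, 4.21 and 4.21 in knockout brain (-0.10 ± 0.15), and Cacna1f was at 0.03 ± 0.16. Among T-type pores, which support burst firing, Cacna1g had levels of 6.43, 6.29 and 7.26 in control and 6.23, 6.42 and 7.37 in knockout brain (0.01 ± 0.35). Cacna1i, which had the smallest p of its group, stood at 6.98, 7.15 and 7.59 in control and 6.96, 6.70 and 7.51 in knockout brain (-0.18 ± 0.24), and Cacna1h was at 0.02 ± 0.19. In all, 0 of the 7 L-type and T-type genes passed.

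The auxiliary subunits alpha2delta and beta likewise had 0 members past the threshold, of 4 and 3 tested. Cacna2d1, the binding site of gabapentin, stood at 8.87, 9.21 and 9.21 in control and 9.08, 8.94 and 9.15 in knockout brain, and its arrays numbered 3 did not stand apart. The log2 fold change of Cacna2d1 was -0.04 ± 0.13 (SE). Cacna2d3 had 8.23, 8.41 and 8.62 in control and 8.35, 8.39 and 8.35 in knockout brain (-0.05 ± 0.13). Cacna2d2, the subunit mutated in ducky mice, was at 0.05 ± 0.27, and the dim Cacna2d4 at 0.03 ± 0.18. Cacnb2, a beta subunit shared by heart and brain, had the smallest p among beta subunits. Its levels were 7.06, 7.02 and 7.46 in control and 6.86, 6.97 and 7.09 in knockout brain, with the knockout arrays lower apart from knockout 3, which overlapped the controls. The log2 fold change was -0.21 ± 0.15 (SE), with a 95% confidence interval of -0.42 to 0.01 when the arrays numbered 3 had their own term, and it was -0.066 without control 3, -0.13 without both arrays numbered 3 and -0.14 after centring each array. A second, dimmer Cacnb2 probeset had a mean difference of 0.062, and the average of both gave -0.073. Cacnb4, the subunit lost in lethargic mice, stood at 8.46, 8.43 and 8.84 in control and 8.20, 8.45 and 8.82 in knockout brain (-0.08 ± 0.19; 0.023 with its probesets averaged). Cacnb1 was at 0.03 ± 0.12.

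Among gamma subunits, 0 of 7 tested members passed. Cacng6, a close relative of the muscle subunit Cacng1, was the other tested member without overlap between groups. It had levels of 4.06, 4.05 and 4.24 in control and 3.80, 3.75 and 3.995 in knockout brain, so that every knockout array lay below every control array by a narrow margin. The log2 fold change was -0.27 ± 0.12 (SE), a fold of 0.83, with a limma adjusted p of 0.9998 (0.984 with the replicate block); its 95% confidence interval of -0.54 to 0.0045 reached 0, and that with a term for the arrays numbered 3, -0.45 to -0.09, did not. Cacng6 was -0.31 with values as deposited and -0.14 with a pseudocount of 16. Cacng1 was under the brightness limit and was not tested. Its levels of 3.14, 2.93 and 3.17 in control and 3.20, 3.40 and 3.21 in knockout brain did not overlap either, with the knockout arrays higher, opposite to Cacng6. Markers of skeletal muscle had mean levels of 4.68 to 4.88 in control and 4.71 to 4.83 in knockout brain over 5 tested genes, with 3 of 5 above 0 and a median log2 fold change of 0.030.

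The gamma subunits that regulate AMPA receptors had a median log2 fold change of -0.044 over 6 genes. Cacng2, or stargazin, which is disrupted in stargazer mice, stood at 8.58, 8.30 and 9.17 in control and 8.43, 8.43 and 9.07 in knockout brain (-0.04 ± 0.26, SE). A second Cacng2 probeset had a mean difference of -0.06 and was also higher on the arrays numbered 3, by 0.41. Cacng8, an abundant hippocampal member, had the smallest p of this group, with 8.05, 8.06 and 8.37 in control and 7.93, 7.97 and 8.14 in knockout brain (-0.15 ± 0.13). Cacng3 was at -0.08 ± 0.25, Cacng4 at -0.05 ± 0.11, Cacng5 at 0.13 ± 0.20 and Cacng7 at 0.11 ± 0.13. Centring arrays on their median turned Cacng2 to 0.018 and Cacng4 to 0.0088. Cacng7, Cacng8 and Cacng6 are neighbours on chromosome 7, and their log2 fold changes of 0.11, -0.15 and -0.27 did not share a sign.

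In most channel genes the arrays numbered 3 differed from the rest by more than the genotypes did from each other. Both of these arrays lay above the other 4 in 24 of 33 members (72.7%), beside 23.4% of all genes tested, and in 0 of 33 did both lie below, beside 20.6% of all genes. This comparison was made after the values had been seen and carries no test. The mean of the arrays numbered 3 exceeded that of the others by a median of 0.45 on the log2 scale over the members, beside 0.0075 over all genes. In 15 of 33 members the excess was above 0.56, the level that 95% of all genes stayed under. In 29 of 33 it was larger in size than the genotype difference of the same gene. That count was not made over all genes, so it cannot be called particular to the channel genes. The range over all 6 arrays had a median of 0.66 per member and that over the 4 other arrays one of 0.26.

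The excess ranged from -0.20 to 1.08 over the members, with no test between roles. In descending order it was 1.08 for Cacna1a, 1.03 for Cacna1e, 0.97 for Cacna1g, 0.90 for Scn1a, 0.88 for Scn8a, 0.87 for Cacna1c, 0.76 for Cacna1b and 0.75 for Scn2a. All 4 brain sodium alpha subunits, 3 of 3 sodium beta subunits, 3 of 3 T-type pores and 3 of 3 calcium beta subunits had both arrays above the rest. Among alpha2delta subunits this held for Cacna2d2 (0.69) but not for Cacna2d1 (0.16), Cacna2d3 (0.14) or Cacna2d4, whose difference was -0.20. These counts rest on the brightest probeset of each gene. The dimmer second probesets of Cacnb4 (-0.15) and Cacnb2 (0.12) did not have both arrays above the rest. The second probeset of Cacng2 did (0.41). Of the 9 members without this order, the dim genes Scn7a, Scn9a, Cacna1f, Cacna1s, Cacna2d4 and Cacng6 made up most, and Cacng4, at 0.06, was the bright gamma subunit with the smallest excess. Brightness went along with the pattern among all genes as well: the share with both arrays above the rest was 8.46% in the dimmest 25% and 37.2% in the brightest 25% of tested genes, and 16 of the 19 members in the brightest 25% had it. Both arrays lay above the rest in 25 of 33 members with values as deposited, beside 25.2% of all genes. With arrays centred on their median this held for 26 of 33 (26.1% of all genes), and with a pseudocount of 16 for 24 of 33 (23.4%). With probesets averaged it held for 23 of 33 (23.1%). The counts were 24 of 36 without a filter, beside 19.1% of all genes, and 24 of 27 in the upper 50% of genes, beside 30.1%.

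**Figure D4:**
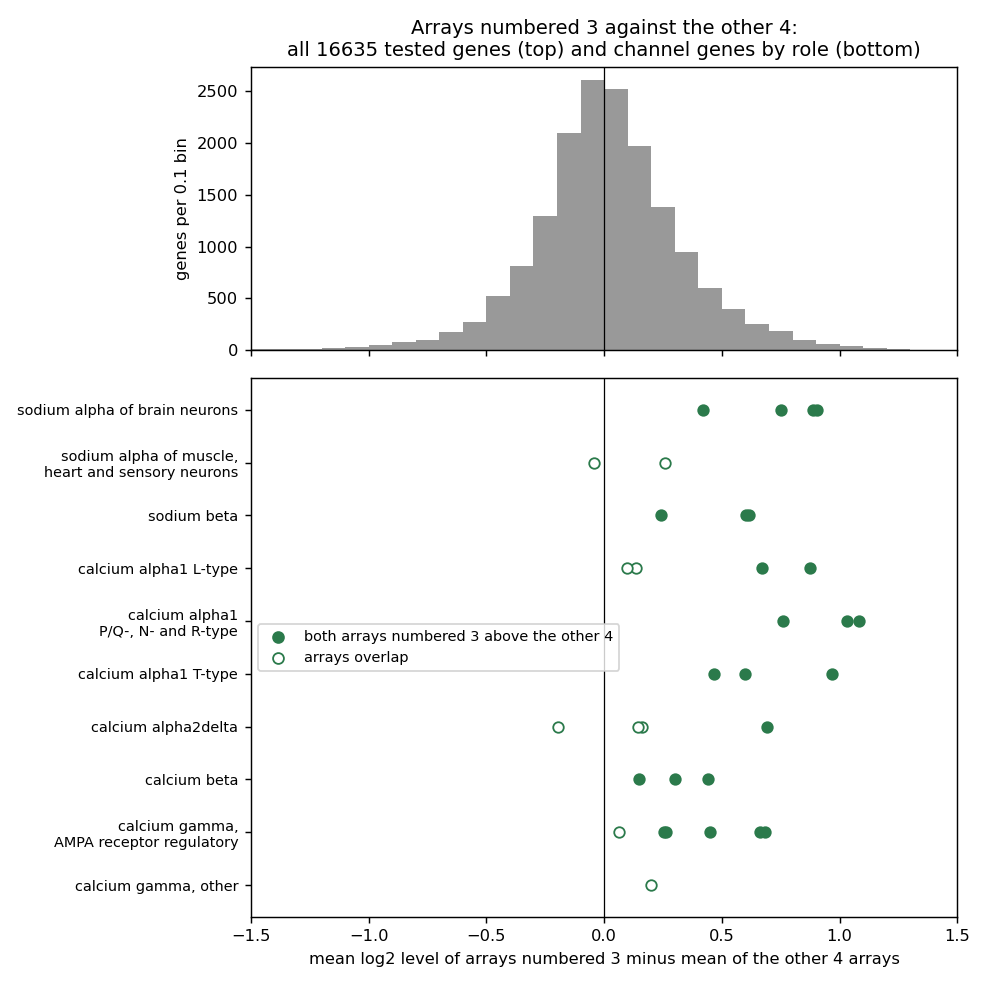
Difference between the mean log2 level of the arrays numbered 3 and the mean of the other 4 arrays, as a histogram over all 16635 tested genes (top; 36 genes beyond 1.5 in either direction are not drawn) and for each of the 33 channel genes by role (bottom). Filled circles, 24 in number, are genes with both arrays numbered 3 above the other 4, and most channel genes lie right of the bulk of genes.

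Within each replicate number the genotypes were close. The size of the difference between knockout and control had a median over the 33 members of 0.096 for number 1, 0.17 for number 2 and 0.079 for number 3. Differences of knockout from control pointed the same way for all 3 numbers in 11 of 33 members, beside 24.9% of all genes tested. Of these, 3 members pointed upward, beside 14.2% of all genes, and 8 downward, beside 10.7% of all genes. This has no test. The numbers come from the sample titles, and only for number 3 did control and knockout arrays match each other best.

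Genes that work with these channels also had no member past the test, adjusted or unadjusted. Of 14 tested sodium channel partners, 7 lay above 0 and 7 below (median -0.003), among them Nedd4l, a ubiquitin ligase that removes channels from the membrane, at 0.15 ± 0.17 (SE), Gpd1l at 0.08 ± 0.11, the intracellular factor Fgf12 at -0.09 ± 0.11 and the initial segment protein Nfasc at -0.15 ± 0.38. Of 17 tested calcium channel partners, 8 lay above 0 (median -0.0094). Cabp1, a calmodulin relative that modulates channel inactivation, had a log2 fold change of 0.24 ± 0.11, the small GTPase Rem2 one of 0.29 ± 0.20, its relative Rrad -0.32 ± 0.16 and the SNARE protein Stx1a -0.17 ± 0.13. With the replicate block, Cabp1 and Rrad had unadjusted p values under 0.05, as did 4.85% of all genes tested, and 0 of 17 passed the adjusted threshold. Related cation channels (9 tested) had a median of 0.0076, with Catsper2 at 0.19 ± 0.10, Tpcn1 at 0.08 ± 0.16, the sodium leak channel Nalcn at -0.15 ± 0.12 and Catsper4 at -0.18 ± 0.15. Genes of calcium stores and extrusion (13 tested) had a median of 0.015, with Atp2b3 at 0.12 ± 0.40, Slc8a3 at 0.04 ± 0.14, the sodium-calcium exchanger Slc8a1 at -0.27 ± 0.19 and the receptor Itpr3 at -0.12 ± 0.29; Slc8a1 had an unadjusted p under 0.05 with the block.

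Among these genes the arrays numbered 3 also stood apart in some lists, beside 23.4% of all genes with both arrays above the rest and 20.6% with both below. Both arrays lay above the rest in 12 of 14 sodium channel partners and below it in 1, with a median excess of 0.42. In genes of calcium stores and extrusion 12 of 13 lay above and 1 below (0.66), and in related cation channels 5 of 9 lay above and 0 below (0.29). Calcium channel partners were closer to all genes, with 6 of 17 above and 4 below (0.068), the latter being Rims1, Rims2, Rem2 and Fmr1. Ank3, which anchors sodium channels at the initial segment, exceeded the others by 0.64, Nfasc by 1.04 and the plasma membrane calcium pump Atp2b3 by 1.13. Rem2 stood 0.43 lower on these arrays.

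Markers of several cell types also differed on the arrays numbered 3, and their part in the channel values was not tested. Of 8 neuronal markers 6 had both arrays above the rest (median excess 0.40), with mean levels from 9.95 to 10.4 over all 6 arrays. The same held for 5 of 6 markers of cerebellar granule and Purkinje cells (0.78), a region rich in Cacna1a. It also held for 4 of 5 thalamic markers (0.31). Cortical and hippocampal markers were mixed, with 2 of 5 above the rest and 1 below (0.26). Interneuron markers had the same counts, 2 of 5 above and 1 below. Among all genes tested, 23.4% had both arrays above the rest and 20.6% had both below. Mean levels of the cerebellar markers were 8.07 to 9.18 in control and 7.95 to 9.33 in knockout brain. All 4 endothelial markers were higher on these arrays, with a median excess of 1.41 and mean levels of 4.91 to 6.12 in control and 4.53 to 6.26 in knockout brain. Markers of meningeal fibroblasts lay lower (-0.70, with 4 of 5 below the rest), as did 4 of 6 astrocyte markers (-0.22) and 4 of 5 microglial markers (-0.22), while interneuron (0.0084), striatal (-0.13) and oligodendrocyte markers (-0.022) had medians close to 0 or slightly below. Between genotypes the neuronal markers had a median log2 fold change of 0.029, beside 0.013 over all genes tested, and 0 passed the test. The values of 8 of 8 were positive, from 0.0039 for Nefl to 0.22 for Nefm. Of all genes tested, 54.8% lay above 0 and 45.2% below, while with arrays centred on their median 31.4% lay below. Median log2 fold changes between genotypes were -0.018 for cerebellar, 0.062 for cortical and hippocampal, -0.016 for striatal, -0.081 for thalamic, -0.025 for interneuron and 0.066 for motor and cholinergic neuron markers, again with 0 past the adjusted threshold. Among markers of other cells the medians were 0.20 for meningeal fibroblasts (4 of 5 above 0), 0.11 for choroid plexus (4 of 4 above), 0.080 for astrocytes, 0.026 for microglia, -0.068 for endothelium, -0.054 for oligodendrocyte precursors and -0.12 for oligodendrocytes (5 of 6 below 0). The oligodendrocyte marker Opalin, named after its values were seen, was at -0.58 ± 0.18 (SE), larger in size than the difference of any tested channel gene. With limma its adjusted p was 0.9998, and 0 markers in these lists passed after adjustment. The part of these cells in the channel values was not tested.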

How the data were processed

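The deposited table holds intensity on a linear scale for 41340 probesets and 6 arrays, made by the authors; the submitters' processing notes name MAS5, and how it was scaled is not stated in the sources used here. Per the labels' protocols, TRIzol RNA of total brain was labelled with the WT Plus kit. Since mice are not identified one by one, a p value reflects how far these samples spread. The number of arrays limits the precision.

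Values were taken as log2(intensity + 1) and quantile normalized, because array medians differed by 0.119, above a limit of 0.1. Of the probesets, 23521 have 1 symbol, 1814 several, and 16005 are unnamed here. The dimmest 25% of genes were not tested. The groups were compared by limma 3.58.1 in R 4.3.3 (lmFit, eBayes, two-sided, Benjamini-Hochberg adjustment over all tested genes), tested on simulated data. An exact permutation test of 3 against 3 arrays cannot go below 0.1. Deviations from group means correlated at 0.31, 0.37 and 0.75 for replicate numbers 1, 2 and 3, all above the limit of 0.1. By that limit the replicate block was run as an alternative, while the main fit used no pairing. Numbers 1 and 2 can correlate without being pairs, since the array numbered 3 moves each group mean away from both. Control 1 matched knockout 2 best, and control 2 matched knockout 1 best. No label states a pairing.

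Members and lists were chosen with earlier results of these data known. By rule, values by array are given for members with an unadjusted p under 0.05 without or with the block, members without overlap, fixed textbook subunits and the smallest p of each role; partner lists name up to 2 genes per direction. Alternatives covered normalization, pseudocount, brightness limit, probeset choice, variance model, array weights, the replicate block, the arrays numbered 3 (the count of members highest there was chosen for this after seeing the data) and each array left out.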

Additional observations from a re-analysis of the deposited data

How the results depend on the processing

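Under every alternative run 0 channel genes passed the adjusted threshold, and of 555 gene values recomputed under the alternatives 468 kept their sign. This count includes alternatives in which the log2 fold change could not differ from the main fit. They are both other brightness limits, the variance model, the replicate block and the term for the arrays numbered 3. Of the 33 genes, 7 kept their sign throughout. Genes with an unadjusted p under 0.05 numbered 0 with a pseudocount of 16 and 0 in the upper 50% of genes, in which Scn9a and Cacng6 were not tested. They numbered 2 without a filter, with the replicate block, with a term for the arrays numbered 3 and without both of those arrays (Scn9a and Cacng6 each time), and 3 with array weights (Scn7a in addition). With values as deposited the 1 gene was Cacng6. Leaving out 1 array gave 0 to 1 gene, which was Scn9a without control 3 or knockout 1, Scn7a without control 1, Cacng6 without knockout 3, and none without control 2 or knockout 2. Over all genes the unadjusted share was 1.7% (282 genes) in the main fit and 1.53% with values as deposited. It was 1.29% with a pseudocount of 16 and 0.79% in the upper 50% of genes, where 27 members were tested. Without a filter, where 36 members were tested, it was 2.10%, and with array weights 4.54%. The share was 4.85% (806 genes) with the replicate block, 4.62% with the term for the arrays numbered 3 and 5.13% without both of those arrays. The block changed no adjusted call. The cause of these changes was not tested.

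Signs turned for the following genes. With values as deposited these were Cacna1c at 0.011, Cacna1f at -0.021, Cacna2d4 at -0.0034, Scn2b at 0.00053 and Scn3a at 0.033. With arrays centred on their median they were Cacna1a at 0.011, Cacna1b at 0.016, Cacna1c at 0.047, Cacna1e at 0.0086, Cacna2d1 at 0.0061, Cacng2 at 0.018, Cacng4 at 0.0088, Scn2b at 0.036, Scn3a at 0.069 and Scn8a at 0.017. Averaging probesets gave Cacnb4 at 0.023, and array weights gave Cacna1d at -0.048, Cacna1g at -0.061 and Cacna2d4 at -0.010. Without both arrays numbered 3 the values were Cacna1d at -0.013, Cacna1g at -0.037, Cacna2d3 at 0.049, Cacna2d4 at -0.015, Cacng4 at 0.0097 and Scn2b at 0.015. Leaving out 1 array in turn, which can leave an array numbered 3 in 1 group only, gave these ranges of log2 fold change across 0: Cacna1a -0.42 to 0.30, Cacna1b -0.31 to 0.20, Cacna1c -0.31 to 0.27, Cacna1d -0.21 to 0.23, Cacna1e -0.41 to 0.27, Cacna1f -0.15 to 0.14, Cacna1g -0.34 to 0.31, Cacna1h -0.14 to 0.18, Cacna1s -0.24 to 0.0066, Cacna2d1 -0.15 to 0.016, Cacna2d2 -0.15 to 0.31, Cacna2d3 -0.15 to 0.045, Cacna2d4 -0.12 to 0.15, Cacnb1 -0.044 to 0.11, Cacnb4 -0.25 to 0.060, Cacng2 -0.25 to 0.21, Cacng3 -0.30 to 0.14, Cacng4 -0.11 to 0.00058, Cacng5 -0.045 to 0.31, Scn1a -0.48 to 0.12, Scn2a -0.44 to 0.062, Scn2b -0.20 to 0.21, Scn3a -0.19 to 0.11, Scn3b -0.11 to 0.11, Scn4b -0.26 to 0.14 and Scn8a -0.32 to 0.27.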
